A study of Homo sapiens with 21 samples.

Results

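The insulin-like growth factor axis was described in the established human lung fibroblast line IMR90 through the RNA of its 10 genes: the ligands IGF1 and IGF2, the receptor IGF1R and the binding proteins IGFBP1 to IGFBP7. They were chosen by gene symbol, and all 10 were among the 16383 genes of the deposited table. RNA was sequenced in 21 libraries of 3 per group. The proliferating group was untreated. The other 6 groups were made senescent by irradiation, given siRNA at 5 nM by transfection at days 4 and 7, and collected at day 10. Their siRNA was non-targeting #3 (NT3 below), non-targeting #4 (NT4), or directed at CCND1, at CDK4, at CDK6, or at both kinases (the dual knockdown). CCND1 is cyclin D1, and CDK4 and CDK6 are the kinases it activates. All groups are wild type and come from a single cell line. Irradiation and transfection cannot be told apart in any comparison with the proliferating group, and the labels give no siRNA sequence, so a reagent and its target cannot be told apart either. Labels do not say that replicates were separate cultures, so the p-values measure only the spread between these libraries.

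IGF1 and IGF2 are small secreted ligands that bind the receptor tyrosine kinase IGF1R, which signals through insulin receptor substrates to PI3K, AKT and mTOR and promotes growth and survival. Outside the cell most of the ligand is held by IGFBP1 to IGFBP6, which carry it, keep it from the receptor or release it when a protease cuts them. IGFBP7 is related but binds the ligands weakly. Several of these binding proteins, IGFBP3, IGFBP5 and IGFBP7 among them, are well known as secreted products of senescent fibroblasts. Only RNA was measured here, so the values below say nothing of secreted protein or of its cleavage.

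The depth was 12892442 to 21822152 reads per library over the genes of the table. Each targeted gene was low in its own knockdown: CCND1 had a mean normalised read count of 4633 ± 480.4 (SD, n = 3) against 39197 ± 8712 (SD, n = 6) in the 6 non-targeting libraries, CDK4 108.1 ± 2.29 (SD, n = 3) against 1248 ± 82.9 (SD, n = 6), and CDK6 773 ± 54.7 (SD, n = 3) against 4706 ± 655 (SD, n = 6). All 10 fibroblast markers checked (COL1A1 and PDGFRA among them) had at least 1153 reads in every library. Markers of other cells were mixed. Of the 7 epithelial markers KRT19 had 135 to 553 reads per library, EPCAM 11 to 46 and the other 5 at most 10. Of the 5 endothelial markers TEK had 1650 to 4878 reads and the other 4 at most 31. Of the 5 immune markers CD68 had 611 to 1587 reads and the other 4 at most 39. Of the 4 smooth muscle markers ACTG2 had 3317 to 9766 reads, CNN1 1033 to 3351, DES 37 to 74 and MYH11 at most 2. The NT3 library with replicate number 3 stood apart. The SD over genes of its deviations from the group mean on the log2 scale was 0.344, against 0.193 to 0.256 in the other 17 irradiated libraries.

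Per kilobase of exon, IGFBP5 had the highest level of the 10 genes in every group but NT3. In proliferating cells its level was 11502 normalised reads per kilobase, followed by IGFBP4 at 6090.4, IGFBP3 at 2752, IGFBP7 at 2710.3 and IGFBP6 at 1012. The receptor IGF1R stood at 141, the ligand IGF2 at 40.1, IGFBP2 at 16.0 and IGFBP1 at 1.47 per kilobase. In NT3 the level of IGFBP4, 14832 per kilobase, exceeded that of IGFBP5 at 12180.1. In that group replicate 3 had the highest IGFBP4 (38924 normalised reads) and the lowest IGFBP5 (61938), and the order without it was not computed. The 10 genes together took 0.661% ± 0.014 (SD, n = 3) of the reads in proliferating cells, 1.05% ± 0.060 in NT3, 0.947% ± 0.028 in NT4 and 0.872% ± 0.054 in CDK4 knockdown. The share was higher in the other knockdowns, 1.30% ± 0.046 with CCND1 knockdown, 1.30% ± 0.063 with dual knockdown and 1.54% ± 0.026 with CDK6 knockdown. IGFBP5 made up 62.0% to 72.2% of these reads by group mean in 6 groups and 48.2% ± 8.15 (SD, n = 3) in NT3, where replicate 3 was at 38.8%. It took 0.450% ± 0.011 of all reads in proliferating cells, where it ranked 12 to 13 among all genes by normalised read count, and 1.11% ± 0.019 with CDK6 knockdown, where it ranked 2 to 3.

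The genes of 4 binding proteins sit in neighbouring pairs: IGFBP1 and IGFBP3 lie 18.6 kb apart on chromosome 7 and IGFBP2 and IGFBP5 lie 7.67 kb apart on chromosome 2, with 0 annotated genes between them in either case (RefSeq, GRCh38.p14). Their promoters are shown for the 3 binding protein genes with the highest normalised read counts in proliferating cells, as the 250 bases before the RefSeq transcription start, 5′ to 3′ on the strand of the gene. Capitals mark a TATA-type motif, TATANA in IGFBP3 and IGFBP4 and TATTTAA in IGFBP5.
IGFBP3: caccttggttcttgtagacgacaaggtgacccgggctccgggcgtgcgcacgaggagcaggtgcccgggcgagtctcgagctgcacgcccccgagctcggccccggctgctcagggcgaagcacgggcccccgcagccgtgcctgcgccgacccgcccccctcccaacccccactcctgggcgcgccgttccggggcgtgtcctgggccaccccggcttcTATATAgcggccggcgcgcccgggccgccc
IGFBP4: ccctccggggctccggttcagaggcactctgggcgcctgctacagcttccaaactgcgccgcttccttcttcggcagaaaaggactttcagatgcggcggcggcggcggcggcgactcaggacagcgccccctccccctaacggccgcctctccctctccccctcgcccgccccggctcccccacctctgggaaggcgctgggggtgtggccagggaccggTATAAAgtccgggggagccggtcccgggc
IGFBP5: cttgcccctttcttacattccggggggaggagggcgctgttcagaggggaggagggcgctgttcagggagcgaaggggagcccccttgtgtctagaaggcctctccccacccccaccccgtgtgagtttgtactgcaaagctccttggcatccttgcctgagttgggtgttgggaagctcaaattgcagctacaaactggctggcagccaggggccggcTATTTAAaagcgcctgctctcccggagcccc
These windows lie at chr7:45921273-45921522 (minus strand), chr17:40443200-40443449 (plus strand) and chr2:216695550-216695799 (minus strand). The capitals begin 30, 29 and 31 bases before the start. Searched on both strands in the 250 bases before the start, TATANA was found in 17.7% of 35116 RefSeq windows and TATTTAA in 4.17%. Of the 10 windows of 7 of the genes, 2 held TATANA (IGFBP3 and IGFBP4, the former matched on both strands at its palindrome) and 1 held TATTTAA (IGFBP5). GGGCGG was in 6 of the 10 windows and in 42.6% of all windows, and GTAAACA, a FOXO-type motif, was in 2 (IGF1 and IGFBP6) and in 2.98% of all windows. The E-box CACGTG was in 0 of the 10 windows and 6.34% of all windows, the AP-1-type motif TGACTCA in 0 and 4.20%, and the E2F-type motif TTTGGCGC in 0 and 0.550%.

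**Figure D1:**
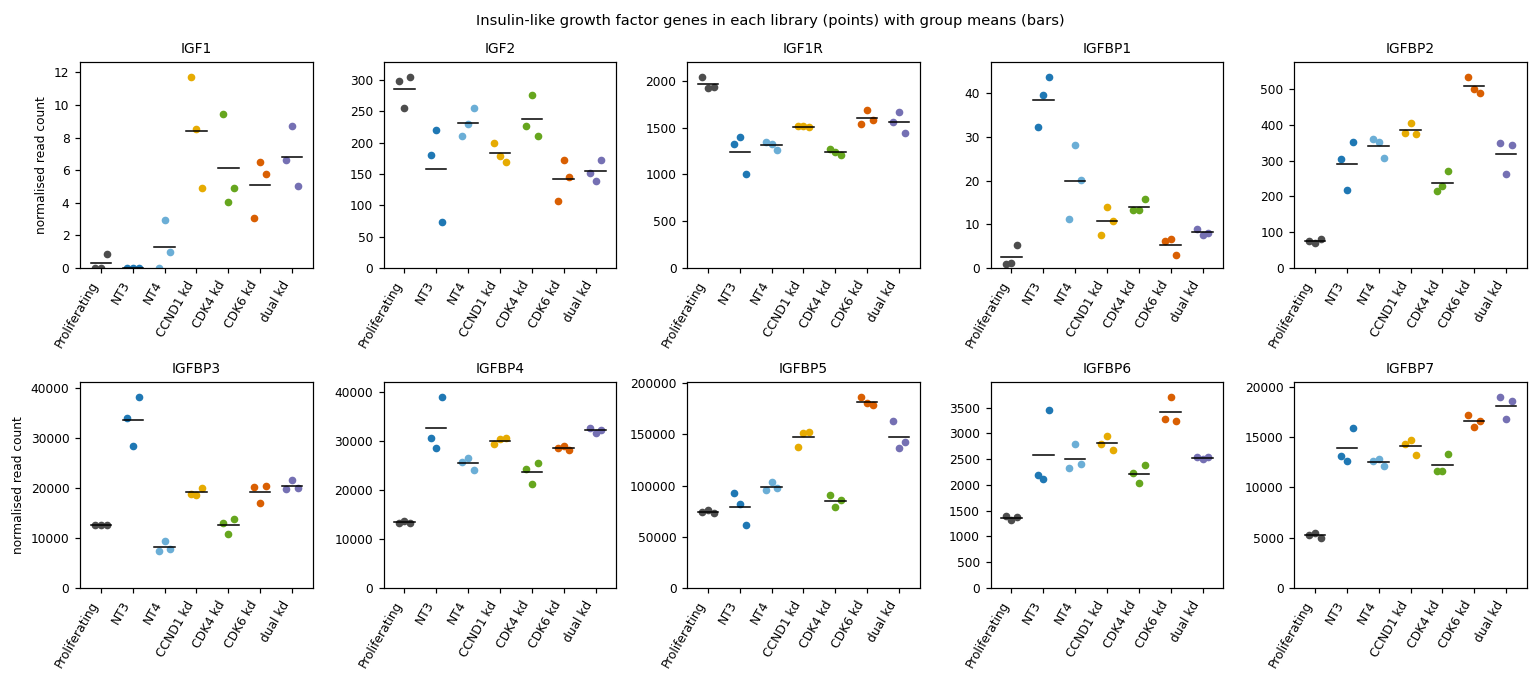
Normalised read counts (y axis, linear, from 0, with its own range in each panel) of the 10 genes in the 3 libraries of each of the 7 groups (x axis; kd, knockdown); points are libraries and bars group means. IGFBP5 is highest in the CDK6 knockdown libraries, IGFBP3 is highest in NT3 and lowest in NT4, and IGF1 stays at 2.92 or below in the proliferating, NT3 and NT4 libraries.

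The first comparison set the senescent controls, taken as the mean of the NT3 and NT4 group means on the log2 scale, against proliferating cells. A gene was tested where at least 3 libraries reached a value of 10. IGF1 did not pass. IGFBP1 passed only through the irradiated groups where it is high. It is therefore left out of the counts and medians of comparisons in which only 1 side has a library at 10. Its main p-values there come from the fit without the filter. Its p-values with 1 control alone or without single libraries come from fits that kept the filter. Of the other 8 tested genes, 6 rose and 2 fell at a limma adjusted p under 0.05, in a comparison where 68.6% of all 11579 tested genes did so (32.6% higher, 36.1% lower). Both of those that fell were signalling genes, IGF2 and IGF1R, and the 6 that rose were binding proteins. The median log2 fold change was 0.63 over the 8 genes and -0.026 over all tested genes.

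Among the ligands, IGF1 was scarcely detected, with 0, 0 and 1 reads in the proliferating libraries, 0, 0 and 0 in NT3 and 0, 3 and 1 in NT4. IGF2, the fetal growth ligand, had normalised read counts of 299, 255 and 305 in proliferating cells, 181, 219.9 and 74.0 in NT3 and 211, 229.7 and 255 in NT4. Every senescent control library lay below every proliferating library, the highest of NT4 only just, and NT3 replicate 3 was far below the rest. IGF2 fell by 0.64 on the log2 scale (SE 0.22, adjusted p = 0.0128). The call was lost against NT4 alone (-0.30, adjusted p = 0.31), without proliferating replicate 3 (-0.60, adjusted p = 0.0508) and in a fit of the compared groups only (adjusted p = 0.0551). IGF2 overlaps the INS-IGF2 readthrough and the antisense gene IGF2-AS, and how shared reads were assigned is not given in the sources used here, so its values are uncertain. IGF1, IGF1R, IGFBP5 and IGFBP7 also overlap other annotated genes, POLR2B at IGFBP7 among them, so the same limit holds for them.

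IGF1R, the signalling receptor for both ligands, had 2039, 1928 and 1936 normalised reads in proliferating cells, 1322, 1399.7 and 999.97 in NT3 and 1351, 1326 and 1263 in NT4. The groups did not overlap, and all 6 senescent libraries were lower. The difference was a log2 fold change of -0.63, SE 0.074, adjusted p = 1.37e-07, and it held in all 20 alternative settings, between -0.68 and -0.52.

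IGFBP2 and IGFBP7 had the largest rises of these binding proteins. IGFBP2, which binds IGF2 with preference, went from 76.0, 69.2 and 82.4 normalised reads in proliferating cells to 304, 217 and 353 in NT3 and 359, 353 and 309 in NT4, a log2 fold change of 2.03 (SE 0.12, adjusted p = 2.75e-12). IGFBP7 went from 5259.8, 5455 and 4978 to 13126, 12615 and 15901 in NT3 and 12624, 12793 and 12077 in NT4, a log2 fold change of 1.33 (SE 0.067, adjusted p = 1.25e-13). Neither gene had a senescent library within the proliferating range. IGFBP1, best known as the acutely regulated binding protein of the liver, had only 1, 1 and 6 reads in the proliferating libraries. Its values were 32.2, 39.7 and 43.7 in NT3 and 11.1, 28.2 and 20.2 in NT4, all above the proliferating libraries. The log2 difference was 3.26, with adjusted p = 1.63e-07 in limma without the filter. Its size depends on the pseudocount and ranged from 1.61 to 3.87 over the alternatives.

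IGFBP4, an inhibitory binding protein that fibroblasts secrete, and IGFBP6, which prefers IGF2, also rose without overlap. IGFBP4 had 13358, 13657 and 13273 normalised reads in proliferating cells, 30617, 28573 and 38924 in NT3 and 25648, 26567 and 24047 in NT4, a log2 fold change of 1.10 (SE 0.072, adjusted p = 1.27e-11). IGFBP6 had 1397, 1312 and 1379, 2192, 2106 and 3449 and 2325, 2792 and 2408 in the same groups, a log2 fold change of 0.88 (SE 0.10, adjusted p = 1.68e-07). For both genes NT3 replicate 3 was the highest of the 6 senescent control libraries.

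The remaining binding proteins did not separate the groups. IGFBP5, which binds matrix as well as ligand, had 74642, 75687 and 72779 normalised reads in proliferating cells, 92711, 81621 and 61938 in NT3 and 95897, 103044 and 98051 in NT4. NT3 replicate 3 lay below all proliferating libraries, and the other 5 senescent libraries lay above them. The log2 fold change of 0.24 (SE 0.091, adjusted p = 0.0252) lost its call in 7 of 20 alternatives, among them NT3 alone (0.06, adjusted p = 0.611), and without proliferating replicate 1, 2 or 3 (adjusted p = 0.0583, 0.05 and 0.0786) or NT3 replicate 1 (0.17, adjusted p = 0.0659).

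IGFBP3, the main carrier of circulating ligand, was the member on which the 2 non-targeting controls disagreed. Its normalised read counts were 12488, 12638 and 12602 in proliferating cells, 33939, 28397 and 38064 in NT3 and 7376, 9319 and 7833 in NT4. All NT3 libraries lay above the proliferating ones and all NT4 libraries below them. The log2 fold change against proliferating cells was 0.39 (SE 0.089, adjusted p = 0.000614) for the mean of the controls, but 1.40 for NT3 alone and -0.63 for NT4 alone, so no single direction holds for IGFBP3.

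NT4 was then compared with NT3 directly, since both are senescent cells with a non-targeting siRNA. Of the 9 tested genes, 4 differed, 2 in each direction, against 27.8% of all tested genes (14.7% higher, 13.1% lower). IGFBP3 was 4.09 times as high in NT3 as in NT4 by group means, with a log2 fold change of -2.03, SE 0.10, adjusted p = 1.59e-11 for NT4 against NT3. This difference kept its call in all 17 alternatives (-2.14 to -1.93). IGFBP4 was also lower in NT4, with a log2 fold change of -0.35, SE 0.084, adjusted p = 0.00339, and lost the call in a fit of these 2 groups only (adjusted p = 0.127). Without NT3 replicate 3 it was -0.22 (adjusted p = 0.00504). IGFBP5 was higher in NT4, with a log2 fold change of 0.35, SE 0.11, adjusted p = 0.0168, but lost the call without NT3 replicate 3 (0.19, adjusted p = 0.0579) and without NT4 replicate 2 (0.32, adjusted p = 0.0573), and in 3 other alternatives (adjusted p = 0.0528 to 0.192). IGF2 was 0.69 higher (SE 0.25, adjusted p = 0.048), a value that fell to 0.21 (adjusted p = 0.368) without NT3 replicate 3 and lost its call in 11 of 17 alternatives, also without NT4 replicate 1 (adjusted p = 0.0748), 2 (0.089) or 3 (0.141). IGF1R, IGFBP1, IGFBP2, IGFBP6 and IGFBP7 were not called.

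**Figure D2:**
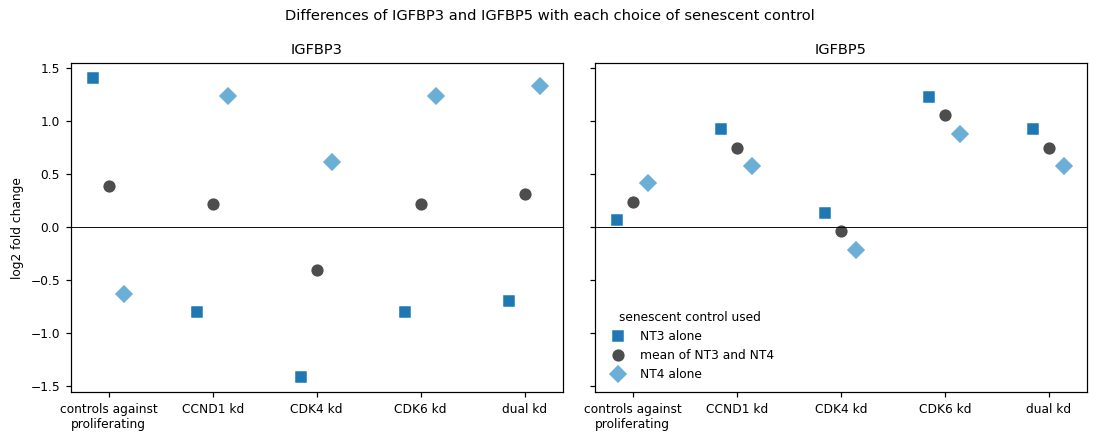
Log2 fold changes (y axis) of IGFBP3 and IGFBP5 in the senescent controls against proliferating cells and in each knockdown against controls (x axis; kd, knockdown), with NT3 alone, NT4 alone or the mean of both as the senescent control. IGFBP3 changes sign with the control in all 5 comparisons, while IGFBP5 stays above 0 with CCND1, CDK6 and dual knockdown.

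Each knockdown was then set against the averaged controls to ask how the members change when cyclin D1, CDK4 or CDK6 is reduced in senescent cells. All 4 comparisons share the same control libraries. With CCND1 knockdown 3 of the 9 tested genes were called (2 higher, 1 lower), against 31.0% of all tested genes (16.7% higher, 14.4% lower). With CDK4 knockdown 3 of 9 were called, all lower, against 16.0% (8.46% higher, 7.55% lower). With CDK6 knockdown, IGFBP1 left out, 5 of 8 were called, all higher, against 41.9% (21.1% higher, 20.8% lower). With dual knockdown, again without IGFBP1, 4 of 8 were called, all higher, against 44.0% (22.5% higher, 21.5% lower). The median log2 fold change was 0.16 with CCND1 and -0.18 with CDK4 over 9 genes, and 0.33 with CDK6 and 0.23 with dual knockdown over 8, where that over all tested genes was -0.0055, 0.0028, -0.01 and 0.0031.

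**Figure D3:**
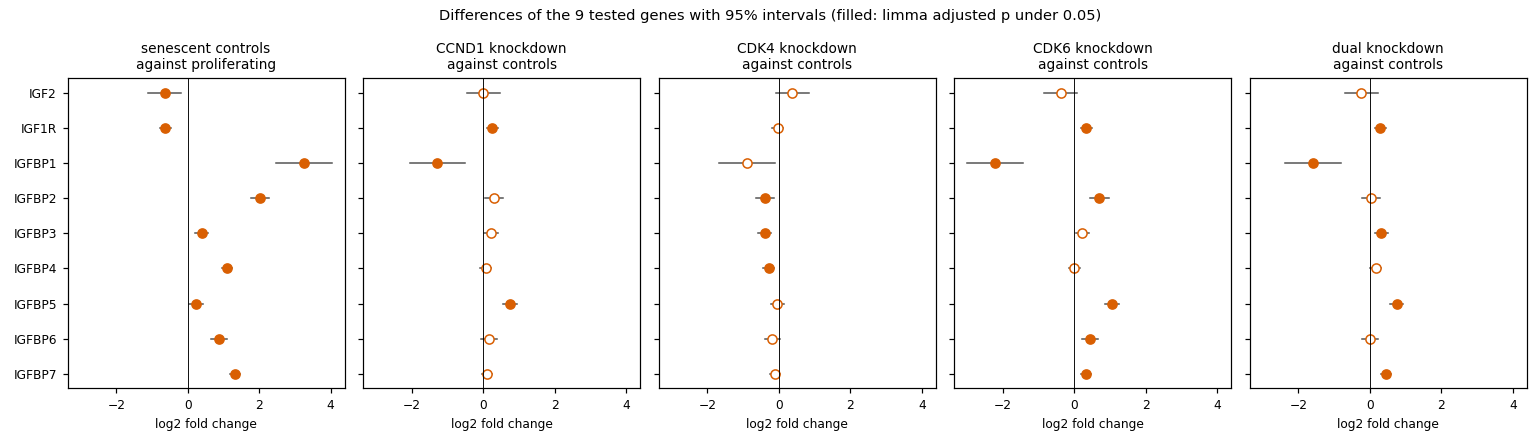
Log2 fold changes (x axis, the same range in each panel) with 95% intervals of the 9 tested genes (y axis) in the senescent controls against proliferating cells and in each knockdown against both controls averaged; filled points passed a limma adjusted p of 0.05, and IGFBP1 passed the filter only through groups where it is high. IGFBP5 is higher and IGFBP1 lower with CCND1, CDK6 and dual knockdown, and IGFBP5 with CDK4 knockdown lies at -0.04.

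IGF1, which the filter on low values left out, had reads in every knockdown library. The reads were 11, 8 and 5 with CCND1 knockdown, 10, 4 and 5 with CDK4 knockdown, 3, 7 and 6 with CDK6 knockdown and 6, 8 and 5 with dual knockdown. The 3 libraries of a knockdown summed to 16 to 24 reads, and the 6 control libraries summed to 4. The lowest knockdown value, 3.05, lay just above the highest control value, 2.92. Without the filter, edgeR on the recovered reads gave adjusted p = 0.000275 for CCND1, 0.00253 for CDK4, 0.00184 for CDK6 and 0.000475 for dual knockdown. limma without the filter also called all 4 (adjusted p = 5.25e-05, 0.00061, 0.000377 and 5.91e-05). The edgeR test was chosen after the values were seen, no fold is given because NT3 had 0 reads, and counts this low carry large counting error.

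IGF2 was not called in any knockdown. Its values were 199.9, 179 and 169.8 with CCND1, 227, 276 and 211 with CDK4, 106.9, 172 and 146 with CDK6 and 151, 139 and 173 with dual knockdown. They overlapped the wide range of the controls, which NT3 replicate 3 set at its lower end. Without that library IGF2 was called lower with CDK6 (-0.62, adjusted p = 0.000259) and with dual knockdown (-0.48, adjusted p = 0.00291).

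IGF1R was higher in 3 of the 4 knockdowns. Its normalised read counts were 1513, 1515 and 1503 with CCND1, 1536, 1686 and 1585 with CDK6 and 1561, 1665 and 1448 with dual knockdown. These lay above all 6 control libraries and below all 3 proliferating ones. The log2 fold changes were 0.25 (SE 0.074, adjusted p = 0.0137), 0.33 (adjusted p = 0.00105) and 0.29 (adjusted p = 0.00299), and the CCND1 call was lost against NT4 alone (0.20, adjusted p = 0.108) and in a fit of the compared groups only (adjusted p = 0.0873). With CDK4 knockdown the values of 1266, 1244 and 1210.1 overlapped those of the controls (a log2 fold change of -0.034, SE 0.074, adjusted p = 0.813, 95% interval -0.19 to 0.12).

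IGFBP5 rose most of the binding proteins. It had 138066, 151571 and 152384 normalised reads with CCND1 knockdown, 186112, 180227 and 178891 with CDK6 knockdown and 162913, 136397 and 142784 with dual knockdown. Every one of these 9 libraries exceeded every control library. By group means IGFBP5 was 1.66, 2.04 and 1.66 times the controls. The log2 fold changes were 0.75 (SE 0.091, adjusted p = 2.72e-06), 1.05 (SE 0.091, adjusted p = 9.75e-09) and 0.75 (SE 0.091, adjusted p = 9.1e-07), and each kept its call in all 22 alternatives. The CCND1 value was 0.36 with quantile normalization (adjusted p = 0.0214). With CDK4 knockdown IGFBP5 had 91194, 79342 and 85650.1 and was not called (a log2 fold change of -0.04, SE 0.091, adjusted p = 0.818, 95% interval -0.23 to 0.15).

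Summed levels of the epithelial and smooth muscle marker lists were also above every control library with CCND1, CDK6 and dual knockdown. The endothelial sum was above every NT4 library in these knockdowns, and above every NT3 library only with CDK6 knockdown. The epithelial sum, mostly KRT19, was 471 to 535 with CCND1, 499 to 597 with CDK6 and 494 to 533 with dual knockdown, against 284 to 393 with CDK4 knockdown, 258 to 328 in NT3, 266 to 308 in NT4 and 159 to 182 in proliferating cells. The endothelial sum, nearly all TEK, was 2888 to 3283 with CCND1, 4092 to 4509 with CDK6 and 3441 to 3694 with dual knockdown, against 2220 to 2512 with CDK4 knockdown, 2592 to 3717 in NT3, 2058 to 2435 in NT4 and 1763 to 1888 in proliferating cells. As for IGFBP5, CDK6 knockdown had the highest libraries of the endothelial list. The smooth muscle sum was 10070 to 10725 with CCND1 knockdown, 10405 to 10982 with CDK6 knockdown and 7526 to 8481 with dual knockdown, against 4226 to 5905 in NT3, 5391 to 6268 in NT4 and 4584 to 4984 with CDK4 knockdown. In proliferating cells, where IGFBP5 had its lowest group mean, the sum was 10332 to 10631. ACTG2 and CNN1 made up nearly all of it. The immune sum, mostly CD68, was 891 to 1140 over these 3 knockdowns, against 1509 to 1618 with CDK4 knockdown, 897 to 1004 in NT3, 1286 to 1451 in NT4 and 662 to 694 in proliferating cells. The fibroblast sum was 546546 to 596624 with CCND1, 522777 to 574721 with CDK6 and 683272 to 868393 with dual knockdown. It was 543328 to 594903 with CDK4 knockdown, 453201 to 512248 in NT3, 537047 to 563933 in NT4 and 605937 to 622153 in proliferating cells. KRT5, CDH5, CD3E and MYH11 had at most 3 reads in any library, and KRT19, TEK, CD68 and ACTG2 at least 135, 1650, 611 and 3317. The part of these genes in the IGFBP5 difference was not tested.

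IGFBP1 moved the opposite way. It had 7.44, 13.9 and 10.8 normalised reads with CCND1, 6.11, 6.52 and 2.87 with CDK6 and 8.83, 7.64 and 8.01 with dual knockdown. All CDK6 and dual knockdown libraries lay below every control, while the highest CCND1 library exceeded the lowest NT4 library. The log2 fold changes were -1.28 (SE 0.38, adjusted p = 0.0128), -2.23 (adjusted p = 8.12e-05 in limma without the filter) and -1.60 (adjusted p = 0.00183, likewise). With a pseudocount of 10 the last 2 were -1.31 and -1.04. The CCND1 call was lost against NT4 alone (-0.78, adjusted p = 0.227) and without CCND1 knockdown replicate 1 (-1.07, adjusted p = 0.0816), and the dual call was lost against NT4 alone (-1.10, adjusted p = 0.0521). These fits kept the filter, with which limma gave adjusted p = 0.00159 for dual knockdown against both controls. With CDK4 knockdown IGFBP1 had 13.3, 13.2 and 15.7 and was not called (a log2 fold change of -0.89, SE 0.38, adjusted p = 0.121), although edgeR and DESeq2 on the recovered reads called it lower (adjusted p = 0.038 and 0.0319).

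IGFBP2 and IGFBP6 rose with CDK6 knockdown. IGFBP2 had 533, 501 and 489 normalised reads, above all controls, a log2 fold change of 0.70 (SE 0.12, adjusted p = 9.24e-05). IGFBP6 had 3275, 3698 and 3242, above all controls but NT3 replicate 3, which lay within their range, a log2 fold change of 0.44 (SE 0.10, adjusted p = 0.00198). IGFBP2 was lower with CDK4 knockdown, at 214, 230.4 and 271 (a log2 fold change of -0.39, SE 0.12, adjusted p = 0.0322). With CCND1 and dual knockdown IGFBP2 differed from the controls by 0.31 (adjusted p = 0.0602) and 0.021 (adjusted p = 0.904), and IGFBP6 by 0.16 (adjusted p = 0.257) and 0.0099 (adjusted p = 0.948). Without NT3 replicate 3 both were called higher with CCND1 knockdown, at 0.38 (adjusted p = 0.00691) and 0.28 (adjusted p = 0.000422).

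IGFBP7 was higher with CDK6 and with dual knockdown. It had 17128, 15986 and 16546 and 18928, 16798 and 18591 normalised reads, above all 6 controls. The log2 fold changes were 0.33 (SE 0.067, adjusted p = 0.000397) and 0.46 (SE 0.067, adjusted p = 8.62e-06), and with quantile normalization 0.20 and 0.28 (adjusted p = 0.00963 and 0.000675). With CCND1 and CDK4 knockdown IGFBP7 had 14298, 14706 and 13235 and 11634, 11589.9 and 13303, and it was not called (adjusted p = 0.277 and 0.285). Without NT3 replicate 3 the CCND1 difference of 0.15 was called (adjusted p = 0.0188).

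IGFBP3 and IGFBP4 depended on the control. IGFBP3 had 18734, 18671 and 19898 normalised reads with CCND1, 13057, 10792 and 13696 with CDK4, 20233, 16896 and 20413 with CDK6 and 19796, 21591 and 19959 with dual knockdown. All 12 libraries lay below NT3 and above NT4. On the log2 scale IGFBP3 differed from NT3 by -0.80, -1.42, -0.80 and -0.70 and from NT4 by 1.23, 0.61, 1.23 and 1.33 in that order, and each of these 8 differences was called. Against the mean of the controls the calls were -0.40 with CDK4 (adjusted p = 0.00339) and 0.31 with dual knockdown (adjusted p = 0.00686), the latter lost with quantile normalization (0.16, adjusted p = 0.105). The control level used there is a mean of logs, so a difference above 0 goes with an arithmetic mean (20449 ± 992 (SD, n = 3) with dual knockdown) below that of the 6 controls (20822 ± 14203 (SD, n = 6)).

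IGFBP4 was called with CDK4 knockdown, at 24292, 21294 and 25457 normalised reads (a log2 fold change of -0.28, SE 0.072, adjusted p = 0.00989), and neither against NT4 alone (-0.11, adjusted p = 0.493) nor with quantile normalization (-0.22, adjusted p = 0.0579). It had 29349.8, 30366 and 30623 with CCND1, 28589.6, 29053 and 28086 with CDK6 and 32611, 31604 and 32313 with dual knockdown, within the range of the controls (adjusted p = 0.499, 0.956 and 0.0696). Without NT3 replicate 3 it was called higher with CCND1 (0.14, adjusted p = 0.0224) and dual knockdown (0.23, adjusted p = 0.000148).

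Without NT3 replicate 3, 8 of the 9 members in place of 3 were called with CCND1 knockdown. Of all 11579 tested genes 4158 were called in that fit, in place of 3594. The 3 calls with CDK4 knockdown (IGFBP2, IGFBP3 and IGFBP4, all with libraries that overlap the controls) were the least stable. All 3 were lost without CDK4 knockdown replicate 2 (adjusted p = 0.127, 0.0558 and 0.121) and in a fit of the compared groups only. Calls over all 11579 tested genes went from 1854 to 1061 and to 787 in these fits. The IGFBP2 call was also lost without NT3 replicate 1, NT4 replicate 1, NT4 replicate 2 or CDK4 knockdown replicate 1 (adjusted p = 0.0577, 0.0643, 0.0605 and 0.178).

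A direct comparison of CDK6 with CDK4 knockdown needs no control library. IGFBP1 left out, all 8 tested genes differed, 7 higher and 1 lower with CDK6 knockdown, where 34.8% of all tested genes did (17.5% higher, 17.3% lower). For each of the 8 genes, and for IGFBP1, the 3 libraries of the groups did not overlap. How many of all tested genes separate in this way was not counted, so this cannot be set against a background. The median log2 fold change was 0.53 over the 8 genes and -0.0095 over all tested genes. The sizes were 1.09 for IGFBP2 (SE 0.14, adjusted p = 2.96e-06), 1.09 for IGFBP5 (SE 0.11, adjusted p = 5.71e-08), 0.62 for IGFBP3 (adjusted p = 6.57e-05), 0.62 for IGFBP6 (adjusted p = 0.000388), 0.45 for IGFBP7 (adjusted p = 0.000101), 0.37 for IGF1R (adjusted p = 0.00187) and 0.28 for IGFBP4 (adjusted p = 0.0133). IGF2 fell by 0.76 (adjusted p = 0.0225) and IGFBP1 differed by -1.34 (adjusted p = 0.0221 in limma without the filter), or -0.67 with a pseudocount of 10. The IGF2 call was lost without CDK4 knockdown replicate 2 (adjusted p = 0.0957) or CDK6 knockdown replicate 1 (0.128), the IGFBP1 call without CDK4 knockdown replicate 3 (0.0607) or CDK6 knockdown replicate 3 (0.107), and the IGFBP4 call without CDK4 knockdown replicate 2 (0.0994) and with quantile normalization (0.251). For IGFBP1 the fits without single libraries kept the filter, with which limma on all libraries gave adjusted p = 0.0193.

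The dual knockdown differed from CDK6 knockdown in 2 of 9 tested genes, both lower, against 13.0% of all tested genes (6.05% higher, 6.94% lower). It differed from CDK4 knockdown in 6 of 8, IGFBP1 left out, all higher, against 30.6% (15.8% higher, 14.8% lower). Below CDK6 knockdown were IGFBP2 (a log2 fold change of -0.68, SE 0.14, adjusted p = 0.00217) and IGFBP6 (a log2 fold change of -0.43, SE 0.12, adjusted p = 0.0215). The IGFBP6 call was lost without CDK6 knockdown replicate 2 or dual knockdown replicate 1, 2 or 3 (adjusted p = 0.0976, 0.0586, 0.0594 and 0.0556). IGFBP5 was -0.31 against CDK6 knockdown with adjusted p = 0.0587, and its libraries did not overlap. It was called by edgeR and DESeq2 on the recovered reads (adjusted p = 0.0398 and 0.0194) and without dual knockdown replicate 1 (-0.38, adjusted p = 0.0395). Above CDK4 knockdown were IGF1R (0.33), IGFBP2 (0.41), IGFBP3 (0.71), IGFBP4 (0.45), IGFBP5 (0.79) and IGFBP7 (0.57). The IGFBP2 call there was lost without CDK4 knockdown replicate 1 or 2 or dual knockdown replicate 1 or 3 (adjusted p = 0.128, 0.0887, 0.129 and 0.118), and the IGFBP4 call with quantile normalization (0.18, adjusted p = 0.145).

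Whether the dual knockdown departs from the sum of the single CDK4 and CDK6 effects was tested on the log2 scale. Of 9 genes, 2 did, IGFBP3 (a log2 fold change of 0.50, SE 0.14, adjusted p = 0.0313) and IGFBP4 (a log2 fold change of 0.45, SE 0.11, adjusted p = 0.0161), both above the sum, against 6.35% of all tested genes (2.63% higher, 3.71% lower). For IGFBP3 the departure was -0.52 with NT4 alone and 1.51 with NT3 alone as control, so its sign rests on the control. IGFBP3 lost its call in 10 of 28 alternatives, among them without CDK4 knockdown replicate 2, CDK6 knockdown replicate 2 or dual knockdown replicate 1, 2 or 3 (adjusted p = 0.116, 0.0967, 0.0536, 0.0743 and 0.0562), and IGFBP4 without CDK4 knockdown replicate 2 (adjusted p = 0.0666), with quantile normalization (0.26, adjusted p = 0.215), with NT4 alone as control (0.28, adjusted p = 0.232) and in the compared groups only (adjusted p = 0.062). Without NT3 replicate 3 IGFBP6 was also called, below the sum (-0.36, adjusted p = 0.00531). CCND1 knockdown was set against dual knockdown, and 1 of 8 tested genes differed, IGFBP1 left out, against 20.3% of all tested genes (11.2% higher, 9.12% lower). This was IGFBP7, lower with CCND1 knockdown (a log2 fold change of -0.36, SE 0.077, adjusted p = 0.00167). For IGFBP5 the difference was 0.0024, with a 95% interval of -0.22 to 0.22. With quantile normalization it was -0.42 and was called (adjusted p = 0.0305).

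The other genes of the pathway were followed with a list of 56, of which 53 were in the table and 48 were tested. FOXO1 and GHR passed the filter only through the irradiated groups and are left out of the first count. In the senescent controls 35 of the other 46 differed from proliferating cells (16 higher, 19 lower), 76.1% against 68.6% of all tested genes. The counts of 48 were 16 (9 higher, 7 lower) with CCND1 knockdown, 33.3% against 31.0%, and 7 (5 and 2) with CDK4 knockdown, 14.6% against 16.0%. They were 26 (13 and 13) with CDK6 knockdown, 54.2% against 41.9%, and 30 (19 and 11) with dual knockdown, 62.5% against 44.0%. For NT4 against NT3 the count was 11 (10 and 1), 22.9% against 27.8%. The list's medians were 0.10, 0.023, 0.11 and 0.092 on the log2 scale for the 4 knockdowns in the same order.

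Among the regulators of binding protein cleavage, 5 of 7 tested genes were higher and 1 was lower in the senescent controls, 85.7% called against 68.6% of all tested genes. PAPPA, the pappalysin that cuts IGFBP4 and IGFBP5, had 526, 481 and 515 normalised reads in proliferating cells, 7905, 9645 and 4393 in NT3 and 5249.6, 5897 and 5604 in NT4. STC1, a stanniocalcin that inhibits pappalysins, had 1787, 1891 and 1852, 8798, 9864 and 8733 and 8349, 9801 and 9660.4 in the same groups. Both rose without overlap, PAPPA by 3.62 (SE 0.15, adjusted p = 4.02e-15) and STC1 by 2.32 (SE 0.085, adjusted p = 8.71e-16) on the log2 scale. STC2, the second stanniocalcin, rose by 0.95 and PAPPA2, the related pappalysin, by 1.02, the latter from a mean of only 10.1 ± 2.95 (SD, n = 3) normalised reads and not with quantile normalization (0.25, adjusted p = 0.469). HTRA1, a secreted serine protease, was not called (0.068, adjusted p = 0.38).

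With knockdown STC1 fell in 3 groups. It had 5065, 4785 and 6204 normalised reads with CCND1, 3473, 4602 and 3546 with CDK6 and 2569, 2888 and 2742 with dual knockdown, all below every control library. The log2 fold changes were -0.79 (adjusted p = 6.12e-07), -1.26 (adjusted p = 3.15e-10) and -1.75 (adjusted p = 1.02e-12), and with CDK4 knockdown the difference was -0.082 (adjusted p = 0.579). PAPPA was lower with CDK6 (-0.52, adjusted p = 0.00699) and dual knockdown (-0.38, adjusted p = 0.0414), where 2 of the 3 NT3 libraries were the highest controls and NT3 replicate 3 lay among the CDK6 knockdown values. STC2 was lower with CDK4 (-0.26), CDK6 (-0.65) and dual knockdown (-0.29), but its means of 13591 ± 835 (SD, n = 3) with CDK4 and 13342 ± 467 (SD, n = 3) with dual knockdown lay between those of NT3 (20366 ± 842 (SD, n = 3)) and NT4 (13021 ± 1318 (SD, n = 3)). HTRA1 was higher with CCND1 (0.28), CDK6 (0.20) and dual knockdown (0.28), where its CDK6 knockdown mean of 1821 ± 43.6 (SD, n = 3) also lay between NT3 (1359 ± 231 (SD, n = 3)) and NT4 (1856 ± 31.6 (SD, n = 3)). Its CCND1 and dual knockdown libraries overlapped those of NT4, the lowest at 1847 and 1878 against 1892 in NT4 replicate 1.

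**Figure D4:**
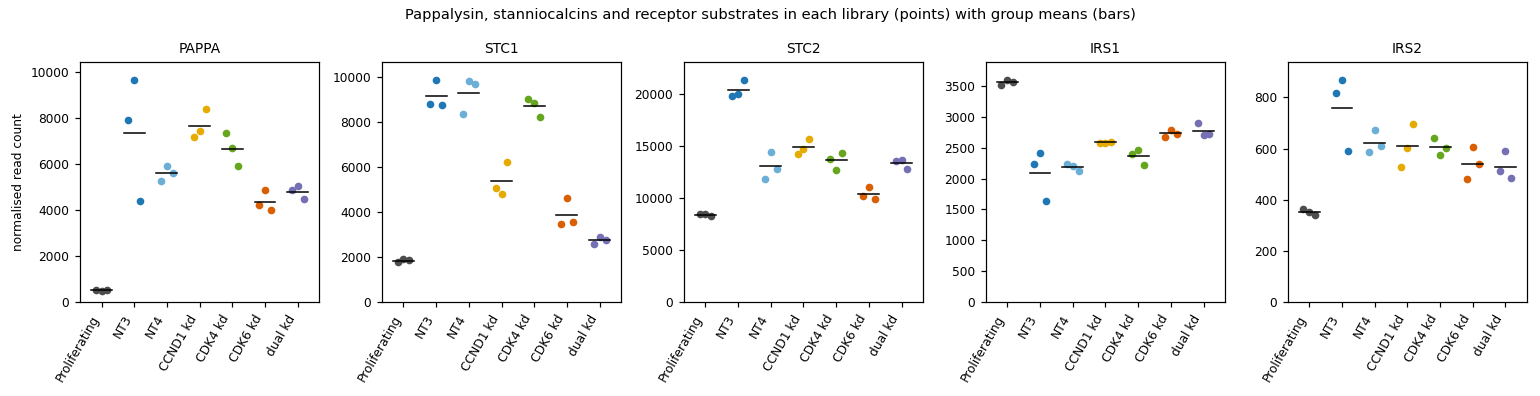
Normalised read counts (y axis, linear, from 0) of the pappalysin PAPPA, its inhibitors STC1 and STC2 and the receptor substrates IRS1 and IRS2 in the 3 libraries of each of the 7 groups (x axis; kd, knockdown); points are libraries and bars group means. STC1 is lower with CCND1, CDK6 and dual knockdown than in all 6 control libraries.

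Downstream of the receptor, IRS1 and IRS2, the docking proteins of IGF1R and the insulin receptor, changed in opposite directions. In the senescent controls IRS1 fell by 0.74 (adjusted p = 1.88e-08) and IRS2 rose by 0.95 (adjusted p = 6.82e-08). With CDK6 and dual knockdown IRS1 was higher (0.36 and 0.38) and IRS2 lower (-0.34 and -0.37), and with CCND1 knockdown IRS1 was higher (0.28). The IRS2 libraries overlapped the controls, with 481, 605 and 538 normalised reads with CDK6 and 512, 592 and 485 with dual knockdown. NT4 had 587, 672 and 611 and NT3 had 817, 869 and 590. Of the adaptors and negative regulators, 8 of 9 differed in the senescent controls (4 higher, 4 lower), 88.9% against 68.6% of all tested genes. Among them were the docking protein GAB1 (-1.04, or -0.68 against NT4 alone) and SOCS2, a suppressor of growth hormone signalling (-1.31). The insulin receptor INSR was lower (-0.70) and IGF2R, which takes up IGF2 for degradation, was higher (0.54). For IGF2R, NT3 replicate 3 (5011 normalised reads) lay within the proliferating range of 4845 to 5114. IGF2R was higher than the controls with dual knockdown (0.36, adjusted p = 0.0127), at 9885, 9341 and 8724. The last of these lay below NT3 replicate 2 at 9028.

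Of the PI3K and AKT genes 7 of 12 differed in the senescent controls (2 higher, 5 lower), 58.3% against 68.6% of all tested genes, among them PHLPP1, a phosphatase of AKT, which fell by 1.002. In the mTOR arm 8 of 11 differed (3 higher, 5 lower), 72.7% against the same 68.6%. The mTOR inhibitor DEPTOR was higher by 1.53 (0.72 with quantile normalization), the translation repressor EIF4EBP1 fell by 1.41 and the stress-induced mTOR inhibitor DDIT4 fell by 1.44. FOXO1, a transcription factor that AKT keeps out of the nucleus, and GHR, the growth hormone receptor, had at most 6 reads in a proliferating library and passed the filter only through the irradiated groups. FOXO1 had 3, 1 and 2 reads in the proliferating libraries and a mean of 17.6 ± 4.35 (SD, n = 6) normalised reads in the controls, a log2 difference of 2.72 (adjusted p = 1.3e-05 in limma without the filter), or 1.21 with a pseudocount of 10. GHR had 4, 3 and 6 reads and a mean of 34.3 ± 7.80 (SD, n = 6) in the controls, a log2 difference of 2.81 (adjusted p = 1.73e-10, likewise), or 1.64 with a pseudocount of 10. GHR was higher than the controls with CCND1 (0.83) and CDK6 knockdown (0.99).

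Likeness to other genes was described by Pearson's r of the log2 levels over the 18 irradiated libraries, which share their groups, so a high r can follow from group differences alone. IGFBP5 was most like LMOD1 (0.98), MAN1C1 (0.98) and EPB41L2 (0.98), IGFBP3 most like MRPL35 (0.95), IGF1R most like ARHGEF17 (0.95), IGFBP1 most like HYOU1 (0.94) and IGFBP7 most like GAS6 (0.94) and DCN (0.94). The highest values for the others were 0.93 for IGFBP4 with SARAF, 0.91 for IGF2 with UTP20, 0.90 for IGFBP2 with CPT1C and 0.89 for IGFBP6 with DOK4. Among the members IGF1R and IGFBP5 had an r of 0.90, IGFBP2 and IGFBP6 of 0.85 and IGFBP3 and IGFBP4 of 0.78, while IGFBP1 and IGFBP5 had an r of -0.82 and IGF2 and IGFBP4 of -0.81. The chromosome 7 neighbours IGFBP1 and IGFBP3 had an r of 0.14 and the chromosome 2 neighbours IGFBP2 and IGFBP5 of 0.71.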

How the data were processed

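RNA sequencing libraries (poly(A) RNA) were analysed from 21 IMR90 samples in 7 groups of 3. Per the submitters' processing notes, the tools were Trimmomatic 0.38.1, HISAT2 2.2.1, featureCounts 2.0.3, FastQC 0.74, MultiQC and DESeq2 2.11.40.8, with builds hg38 and GRCh38; their settings are not given in the sources used here. The deposited signal is 1 normalised read count per gene and library, per the file headers, and every value was a whole number of reads divided by 1 size factor per library (100% of values within a tolerance of 0.1 reads), so the authors' scaling could be undone for count tests. Columns carry the group and no replicate number of the labels, so the replicate numbers used here are names in column order.

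Testing was limited to the 11579 genes that reached 10 normalised reads in 3 or more libraries. Values were offset by 1, log2-transformed and modelled in limma 3.58.1 (R 4.3.3), using a mean per group, a variance trend and all 21 libraries. Two-sided p-values received a Benjamini-Hochberg adjustment across tested genes, separately for each of 11 comparisons, and the threshold was 0.05. The senescent control level was the mean of the NT3 and NT4 group means. The fit was tested on simulated data. Other settings tried were offsets of 0.1 and 10, omission of the filter, a mean of at least 100, median centring, quantile normalization, NT3 or NT4 alone, the compared groups only, edgeR 4.0.16 and DESeq2 1.42.0 on the recovered reads, and leaving out each library. Exon lengths were taken from GENCODE and promoters from RefSeq (GRCh38.p14); no window was listed for IGF2, IGFBP1 and IGFBP7. Named genes were the 10 members and, of the wider list, those called with an absolute log2 fold change over 1 in the senescent controls or a knockdown, plus IGF2R, INSR, IRS1, IRS2, PAPPA, STC1, STC2 and HTRA1. The members and lists were chosen with earlier results of these data known. Control numbers follow the sample titles, and the series description uses others.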

Additional observations from a re-analysis of the deposited data

How the results depend on the processing

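Over all alternatives, 1977 values of the members were recomputed: 1785 kept their direction and their side of the threshold, 75 lost a call, 52 gained a call and 65 changed sign. Of 99 member results 50 were called, and 29 of these kept their call in every alternative run. For each change below the cause was not tested, other than that fits of the compared groups only use fewer libraries. Values are log2 differences. Depth limits IGF1, with 0 to 11 reads per library, and IGFBP1, with 1 to 6 in proliferating cells, and the filter at a mean of 100 leaves no value for IGFBP1.

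With NT4 alone as control the sign changed for IGF2 in CCND1 knockdown (-0.34), IGFBP2 in dual knockdown (-0.10), IGFBP4 in CDK6 knockdown (0.17), IGFBP3 in the senescent controls (-0.63) and in CDK4 knockdown (0.61), and, for the departure from the sum, IGF2 (0.11), IGF1R (0.041) and IGFBP3 (-0.52). With NT3 alone it changed for IGF2 in dual knockdown (0.10), IGF1R in CDK4 knockdown (0.015), IGFBP5 in CDK4 knockdown (0.13), IGFBP4 in CCND1 (-0.11) and dual knockdown (-0.011), and IGFBP3 in CCND1 (-0.80), CDK6 (-0.80) and dual knockdown (-0.70). With quantile normalization it changed for IGFBP4 (-0.039) and IGFBP6 (-0.066) in dual knockdown, IGFBP7 in CCND1 knockdown (-0.040), IGFBP6 in NT4 against NT3 (0.0030), IGFBP5 in the departure from the sum (0.029), and IGFBP1 (-0.046), IGFBP4 (0.056) and IGFBP5 (-0.42) in CCND1 against dual knockdown. Median centring changed IGFBP4 in CDK6 knockdown (0.0063) and IGFBP5 in CCND1 against dual knockdown (-0.0029), and a pseudocount of 10 changed IGF2 in CCND1 knockdown (-0.0035). IGF2 in CCND1 knockdown was -0.082 with edgeR and -0.079 with DESeq2, and IGFBP6 in dual knockdown was -0.0025 and -0.018.

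Leaving out single libraries gave, against the controls, -0.23 to 0.16 for IGF2 in CCND1 knockdown, -0.11 to 0.013 for IGF1R and -0.12 to 0.024 for IGFBP5 in CDK4 knockdown, -0.051 to 0.060 for IGFBP4 in CDK6 knockdown, and -0.077 to 0.15 for IGFBP2 and -0.054 to 0.12 for IGFBP6 in dual knockdown. For NT4 against NT3 it gave -0.051 to 0.19 for IGF1R and -0.14 to 0.22 for IGFBP6. For the departure from the sum it gave -0.42 to 0.0053 for IGF2 and -0.057 to 0.066 for IGF1R. For dual against CDK6 knockdown it gave -0.043 to 0.30 for IGF2 and -0.091 to 0.010 for IGF1R, and for CCND1 against dual knockdown -0.094 to 0.0070 for IGF1R and -0.051 to 0.077 for IGFBP5.

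Counts of members called, over all 9 tested genes with IGFBP1, moved as follows. In CCND1 knockdown the count of 3 was 5 with NT3 alone and 2 to 8 when single libraries were left out (8 without NT3 replicate 3). In CDK4 knockdown the count of 3 was 0 in the compared groups only and 0 to 3 without single libraries (0 without CDK4 knockdown replicate 2). For NT4 against NT3 the count of 4 was 2 without the filter, 1 in the compared groups only and 2 to 5 without single libraries (2 without NT4 replicate 2). For dual against CDK6 knockdown the count of 2 was 4 in the compared groups only and 1 to 2 without single libraries (1 without CDK6 knockdown replicate 2 or dual knockdown replicate 2 or 3), and for CCND1 against dual knockdown the count of 1 was 2 with quantile normalization and 2 in the compared groups only. The count of 2 for the departure from the sum was 4 with NT3 alone, 1 with NT4 alone, 1 without the filter, 0 with quantile normalization, 0 in the compared groups only and 0 to 3 without single libraries (0 without CDK4 knockdown replicate 2, and 1 without CDK6 knockdown replicate 2 or any 1 dual knockdown library). The counts for the senescent controls, CDK6 knockdown, dual knockdown, CDK6 against CDK4 and dual against CDK4 knockdown stayed within 1.5 times. Calls over all 11579 tested genes moved with the setting too. In the compared groups only they went from 1854 to 787 with CDK4 knockdown and from 3216 to 955 for NT4 against NT3. For the departure from the sum they went from 735 to 394, and for dual against CDK6 knockdown from 1504 to 2434. For CCND1 against dual knockdown they went from 2354 to 3177. With quantile normalization they were 2125 for that comparison and 633 for the departure from the sum. For dual against CDK6 knockdown they were 1135 without CDK6 knockdown replicate 2, and 1243 and 1055 without dual knockdown replicate 2 and 3. With NT3 alone they went from 3594 to 4424 in CCND1 knockdown and from 735 to 1899 for the departure from the sum. With NT4 alone they were 455 for the departure, and without the filter 652 of 15243 genes. Without CDK4 knockdown replicate 2 they were 1061 with CDK4 knockdown and 449 for the departure. The departure had 564 without CDK6 knockdown replicate 2, and 475, 680 and 481 without dual knockdown replicate 1, 2 or 3. For NT4 against NT3 they were 2888 without NT4 replicate 2 and 3046 of 15243 without the filter.

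No paired analysis was possible because the columns carry no replicate number of the labels. Column headers carry running A numbers that fall into 3 runs over the irradiated groups. In an alternative chosen after seeing the data, the run served as a replicate block. Deviations of 45 same-run library pairs had correlations of -0.11 to 0.10 (median 0.037). In 90 different-run pairs they were -0.14 to 0.16 (median -0.017). Whether the runs pair the libraries cannot be told from these values. The block gave a count of 1 member for the departure from the sum, as did the 18 irradiated libraries without the block (1), and changed no other count of members by over 1.5 times.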
